A study of Mus musculus with 30 samples.

Results

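Whole ovaries of adult CD1 mice, an outbred stock, were compared directly after 10 days of treatment with diisononyl phthalate (DiNP) at 100 ug/kg/day or with the vehicle alone. The comparison was defined by the labels and comprises 6 libraries of the 30 in the series: 3 of DiNP 100 ovaries at 0 months and 3 of vehicle ovaries at 0 months, numbered 1 to 3 in each group. DiNP is a plasticizer of polyvinyl chloride that is used in place of di(2-ethylhexyl) phthalate. The labels name no engineered allele, and they give neither the vehicle nor the route. The other groups used here are DiNP at 20 ug/kg/day at 0 months, and DiNP 100 and vehicle ovaries collected 3 months after the same 10 days of dosing. The labels give replicate numbers but do not say whether each library is 1 mouse, so a p-value here speaks to variation among libraries, which may be technical.

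The mouse ovary is a mixture of follicles at all stages, corpora lutea, stroma, vessels and resident immune cells. Granulosa cells around the oocyte make estradiol from theca cell androgens, and after ovulation the follicle wall becomes a corpus luteum that makes progesterone. Macrophages are the most prominent resident immune cells, and they clear dying granulosa and luteal cells. Because the RNA is of whole tissue, fewer cells of a type and less RNA per cell cannot be told apart in any result below.

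Values are log2 CPM, reads scaled to library size on a log2 scale, as the authors deposited them, and a difference is the log2 difference of group means, DiNP 100 minus vehicle, with its standard error (SE) from limma fitted to all 30 libraries. Of 18022 genes in the table, 14740 had a mean log2 CPM above 0 and were tested, and a gene was called at a Benjamini-Hochberg adjusted p under 0.05. Depth, approximated from the smallest steps between values, was 31.42 to 35.12 M reads (megareads) in the DiNP 100 libraries and 30.1 to 30.68 M reads in the vehicle libraries. Library correlations over all tested genes were 0.9608 to 0.978 among DiNP 100 ovaries and 0.9737 to 0.9805 among vehicle ovaries. The libraries of the 2 groups correlated with each other at 0.9645 to 0.9831, so the groups did not separate over the transcriptome as a whole. DiNP 100 replicate 3 stood apart from the rest, with 927 genes at least 2-fold away from the mean of the other 2 replicates. The same count was 472 to 533 in the other DiNP 100 libraries and 261 to 506 in the vehicle libraries. For many, but not all, of the values below that DiNP 100 replicate 3 moves by much, the value without it is given as well.

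No single gene was called between DiNP 100 and vehicle ovaries (0 of 14740, 0%). With limma, 258 genes (1.75%) had an unadjusted p under 0.05, of which 118 (0.801%) were higher and 140 (0.95%) lower in DiNP 100 ovaries, while 737 would be reached by chance if no gene differed. The smallest adjusted p of any gene rounded to 1. The median 95% confidence interval of a gene reached 0.409 log2 to either side of its difference. This interval is not adjusted for the number of genes, so for a typical gene a call needed a difference larger than this. The 3 DiNP 100 libraries lay wholly above the 3 vehicle libraries for 597 genes (4.05%) and wholly below them for 628 (4.26%), together 1225 genes (8.31%). The means differed at least 1.5-fold for 665 genes (4.51%) and at least 2-fold for 188 (1.28%), of which 84 (0.57% of those tested) also had groups that did not overlap.

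**Figure D1:**
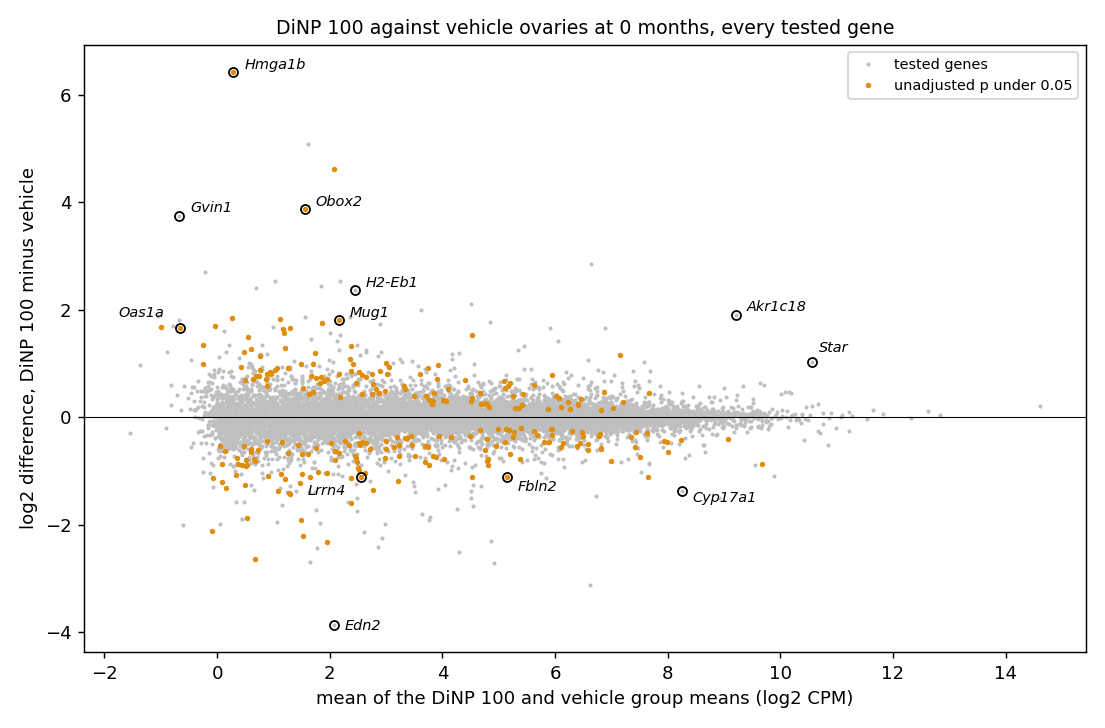
Log2 difference, DiNP 100 minus vehicle (vertical axis), against the mean of the 2 group means in log2 CPM (horizontal axis) for the 14740 tested genes, 1 point each. Orange points are the 258 genes with an unadjusted limma p under 0.05, none of which was called after adjustment, and circles mark genes described in the text.

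The 40 gene lists were described by how many members lay higher or lower and by their median difference, beside the same over all tested genes, where 53.8% of differences were above 0, 46.2% were below 0 and the median was 0.01. Interferon response, antigen presentation and macrophage genes had the highest medians of the lists with at least 5 tested genes, and ovarian surface and granulosa cell genes the lowest. These lists are taken up in turn.

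**Figure D2:**
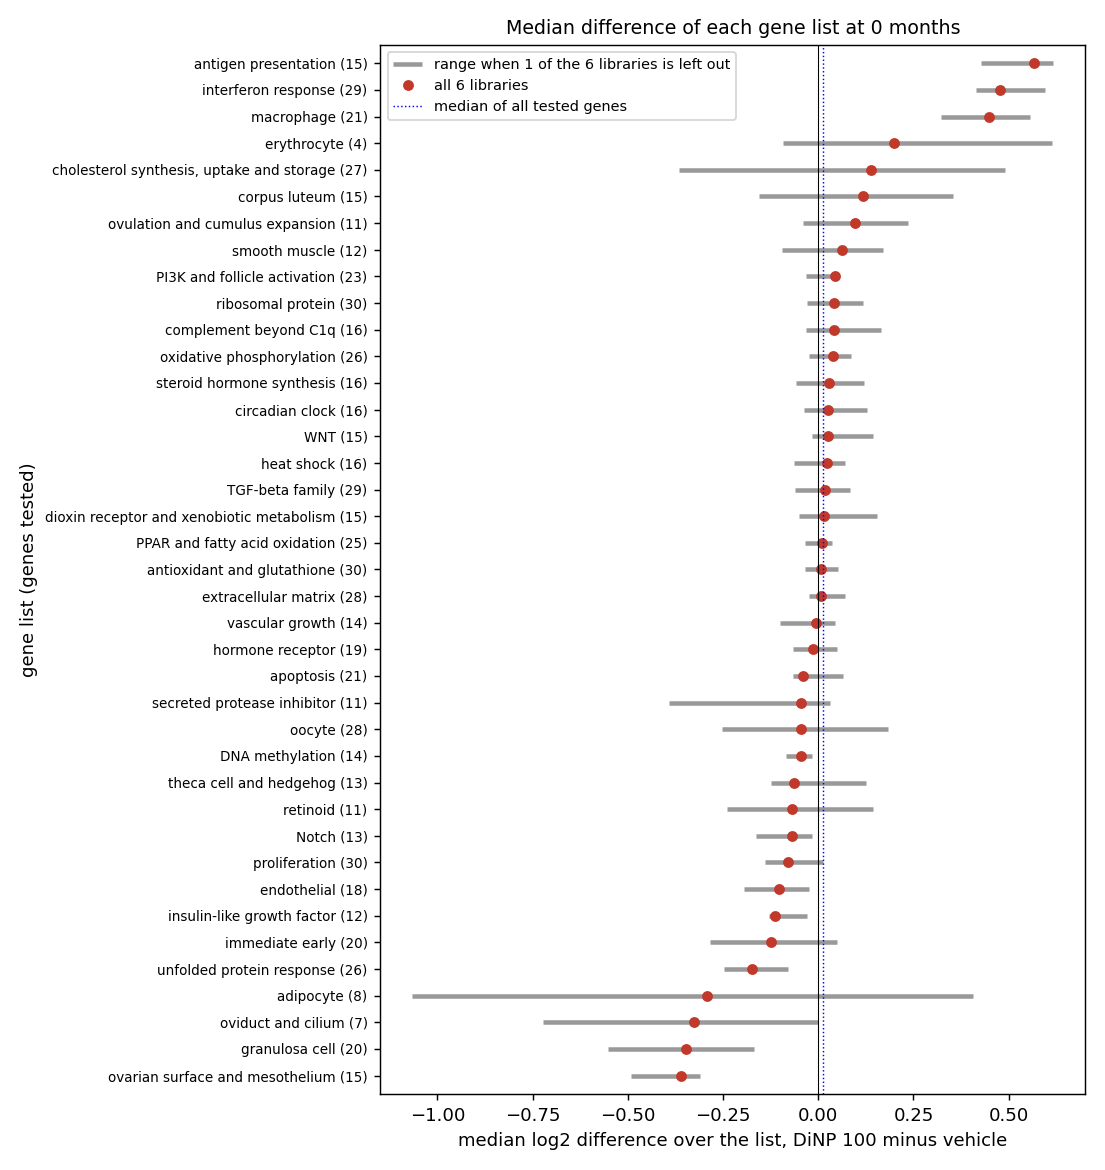
Median log2 difference, DiNP 100 minus vehicle, of each gene list (points) and its range when 1 of the 6 libraries is left out (grey bars), with the number of tested genes in brackets. The list of T, B and NK cell and neutrophil markers, with 2 tested genes, is not drawn, and the dotted line is the median of all tested genes at 0.01. The ranges of the antigen presentation, interferon response and macrophage lists lie above 0 throughout, and those of the cholesterol and corpus luteum lists cross it.

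Interferon response genes encode proteins that sense viral RNA, block its translation or relay the interferon signal, and a transcription factor complex that includes IRF9 binds their promoters at a GAAA repeat called the interferon-stimulated response element. Promoter stretches of 4 genes that were higher in DiNP 100 ovaries are shown because they carry this repeat. Each is the 150 bases before the transcription start, from RefSeq on GRCm38.p6, with every match to the motif GAAA, any 2 bases, GAAA on either strand in capitals. Isg15 lies at chr4:156200819-156200968 (minus strand), Ifit1 at chr19:34640739-34640888 (plus), Oas1a at chr5:120907526-120907675 (minus) and B2m at chr2:122147537-122147686 (plus).
Isg15: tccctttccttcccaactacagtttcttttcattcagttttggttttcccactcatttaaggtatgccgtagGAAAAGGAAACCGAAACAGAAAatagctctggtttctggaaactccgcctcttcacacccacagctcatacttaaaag
Ifit1: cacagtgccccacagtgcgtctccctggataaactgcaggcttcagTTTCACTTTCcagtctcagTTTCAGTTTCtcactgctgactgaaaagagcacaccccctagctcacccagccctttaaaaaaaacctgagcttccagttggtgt
Oas1a: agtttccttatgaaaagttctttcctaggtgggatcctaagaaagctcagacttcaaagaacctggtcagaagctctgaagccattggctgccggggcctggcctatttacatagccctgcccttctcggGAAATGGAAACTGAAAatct
B2m: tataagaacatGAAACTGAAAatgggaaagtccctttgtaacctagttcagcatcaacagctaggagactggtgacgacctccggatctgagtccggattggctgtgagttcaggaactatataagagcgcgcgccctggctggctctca
Isg15 holds 3 overlapping matches, Oas1a holds 2 that overlap, Ifit1 holds 2 on the opposite strand and B2m, of the antigen presentation list, holds 1. In windows of 300 bases (250 before and 50 after the start) the repeat was found in 13 of the 20 interferon response genes with a promoter in the table (65%), against 429 of the 11547 tested genes with one (3.72%). B2m was the only one of the 11 antigen presentation genes with a promoter in the table to hold it (9.09%). A match describes the letters and shows no binding.

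All 29 tested interferon response genes had a higher mean in DiNP 100 than in vehicle ovaries, with a median difference of 0.48 and a range from 0.07 to 1.67. The 3 DiNP 100 libraries lay wholly above the 3 vehicle libraries for 19 of the 29, where 4.05% of all tested genes did. None of the 29 was called, and 4 had an unadjusted limma p under 0.05 (Oas1a, Rtp4, Trim30a and Ifit1). Averaged over the list, the libraries stood at 2.83, 2.74 and 2.72 log2 CPM in DiNP 100 ovaries and at 2.32, 2.20 and 1.98 in vehicle ovaries. The list means of the groups did not overlap. Without DiNP 100 replicate 3 the median was 0.46, with 28 of the 29 higher, and with any 1 library left out it ran from 0.41 to 0.60.

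Among the effectors, Oas1a (Entrez 246730), an oligoadenylate synthetase that activates RNA decay by RNase L, stood at 0.36, 0.28 and -0.14 log2 CPM in DiNP 100 libraries and at -1.06, -0.52 and -2.92 in vehicle libraries. The difference was 1.67 ± 0.58 (SE), with an adjusted p = 1 in limma, and it was 0.96 without vehicle replicate 3, the lowest library. Ifit1 (Entrez 15957), which binds foreign RNA caps, stood at 1.48, 1.69 and 0.82 in DiNP 100 libraries and 0.33, 0.17 and 0.06 in vehicle libraries, a difference of 1.15 ± 0.48. Isg15, a ubiquitin-like modifier, stood at 1.25, 1.08 and 0.99 in DiNP 100 libraries and 0.95, -0.08 and -0.43 in vehicle libraries. In each of these 3 genes every DiNP 100 library lay above every vehicle library.

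Among the sensors and regulators, Rtp4 (Entrez 67775), which is interferon-induced, stood at 3.27, 2.86 and 2.61 log2 CPM in DiNP 100 libraries and at 2.10, 2.05 and 1.62 in vehicle libraries (difference 0.99 ± 0.35). Zbp1, a sensor of Z-form nucleic acids, differed by 1.21 ± 0.71, and Ifih1, a sensor of long double-stranded RNA, by 0.45 ± 0.26. Irf9, the DNA-binding part of the complex, stood at 4.54, 4.46 and 5.06 in DiNP 100 libraries and at 4.31, 4.34 and 3.84 in vehicle libraries (0.52 ± 0.29, or 0.34 without DiNP 100 replicate 3). Its groups were apart, whereas those of its partner Stat2 overlapped (difference 0.07 ± 0.19). Irf7, which amplifies type I interferon transcription, differed by 0.64 ± 0.35. Bst2, Ifit2, Dhx58 and Ifi27l2a had differences of 0.09 to 0.16 with overlapping groups. Oas3, Oasl1 and Mx1 were below the filter.

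**Figure D3:**
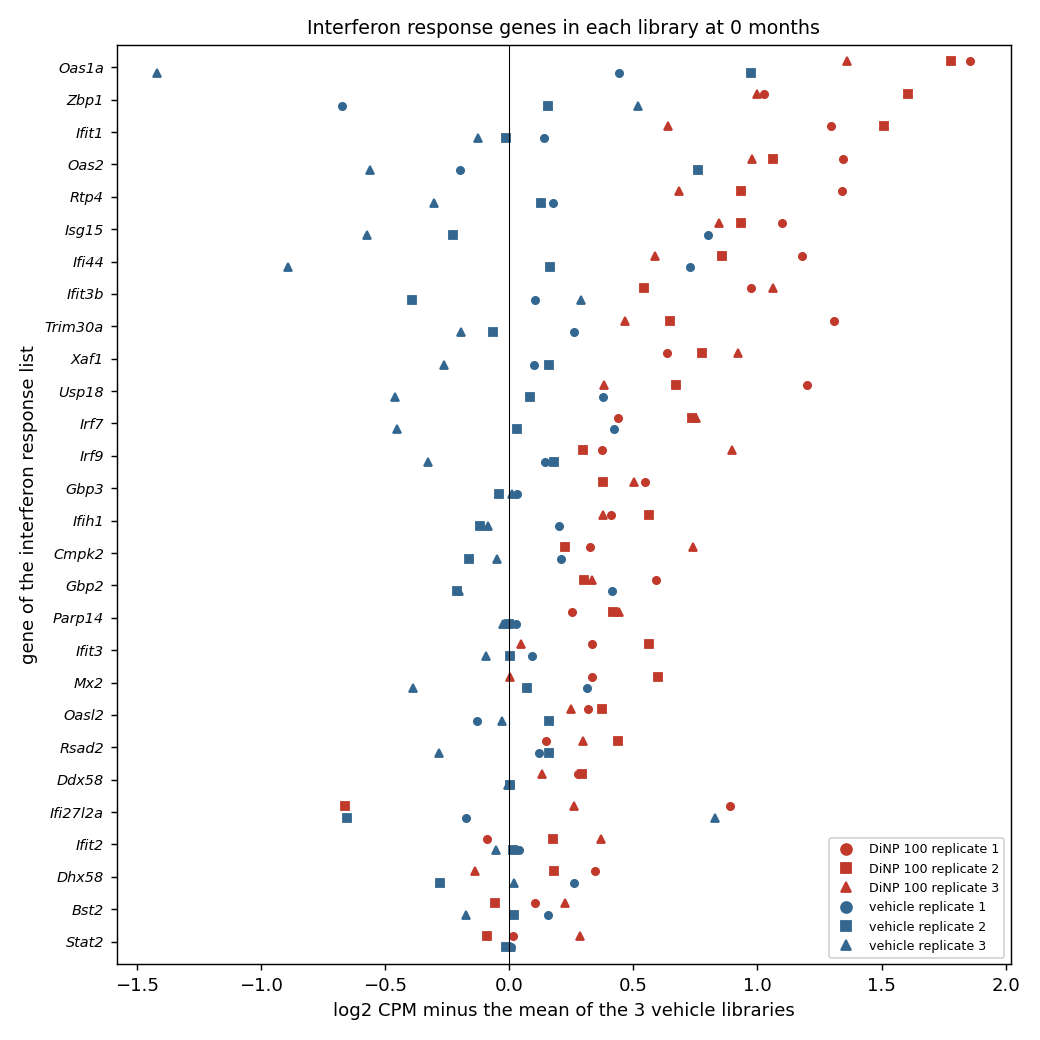
Log2 CPM of 28 of the interferon response genes in each library, less the mean of the 3 vehicle libraries (horizontal axis), with genes ordered by their difference. DiNP 100 libraries (red, upper points of each row) lie to the right of the vehicle libraries (blue, lower points) without overlap in 18 of the 28 genes drawn.

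Antigen presentation genes load peptides onto class I molecules in all cells and class II molecules in professional antigen-presenting cells. All 15 tested members were higher in DiNP 100 ovaries, with a median of 0.57, and 6 were apart between the groups, where 4.05% of all tested genes lay wholly higher. None was called or reached an unadjusted limma p under 0.05. B2m, the light chain of class I, stood at 7.85, 7.55 and 7.94 log2 CPM in DiNP 100 libraries and 7.22, 7.16 and 7.16 in vehicle libraries (0.60 ± 0.46). The class II chain H2-Ab1 stood at 5.24, 5.77 and 5.53 in DiNP 100 libraries and 4.80, 4.95 and 4.46 in vehicle libraries (0.78 ± 0.54), and Cd74, the class II chaperone, differed by 0.66 ± 0.52. The groups were apart in all 3 genes. Ciita, the master regulator of class II transcription, differed by 1.02 ± 0.57 with DiNP 100 replicate 1 level with vehicle replicate 2. H2-Eb1 was present or nearly absent by library, at 4.93, 4.97 and 1.00 in DiNP 100 libraries and 3.91, 0.12 and -0.23 in vehicle libraries, so its difference of 2.36 ± 1.54 rests on single libraries of both groups. The mean over the list was 5.05, 5.20 and 5.14 in DiNP 100 libraries and 4.69, 4.55 and 4.23 in vehicle libraries.

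Macrophage markers were higher in 20 of 21 cases, with a median difference of 0.45, and 10 lay wholly higher, as did 4.05% of all tested genes. Adgre1, which encodes the F4/80 antigen, stood at 3.86, 4.44 and 3.75 log2 CPM in DiNP 100 libraries and at 2.99, 3.37 and 3.24 in vehicle libraries (0.81 ± 0.35), and was the only marker with an unadjusted limma p under 0.05. The C1q chains C1qa, C1qb and C1qc differed by 0.64 ± 0.31, 0.56 ± 0.30 and 0.63 ± 0.31, and Fcgr1, the high-affinity immunoglobulin receptor, by 0.86 ± 0.41. Lyz2 (0.19 ± 0.38), Mpeg1 (0.28 ± 0.32) and Csf1r (0.41 ± 0.26) had smaller differences, and Cd14 (-0.08 ± 0.22) was the exception to the direction. The list mean was 3.76, 4.07 and 3.96 in DiNP 100 libraries and 3.35, 3.71 and 3.40 in vehicle libraries, without overlap. These values stand beside those of the interferon and antigen presentation lists, since macrophages express both, and their part in those differences was not tested. No macrophage marker was at the lowest value of the table in any of the 6 libraries.

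Markers of other leukocytes were scarce. Of the 12 T, B and NK cell and neutrophil markers in the table, 10 did not reach the filter and 2 were tested. Cd4 stood at 1.62, 2.12 and 1.47 log2 CPM in DiNP 100 libraries and 0.92, 1.18 and 0.43 in vehicle libraries (0.89 ± 0.47). The pan-leukocyte Ptprc differed by 0.54 ± 0.30, with overlap. Of the 10 markers below the filter, 8 had the higher mean in DiNP 100 ovaries, and 2 of them were apart. The same shares over all genes below the filter were not computed, and values this low are uncertain, so these counts have no comparison. Prf1, the perforin of cytotoxic cells, stood at -1.37, -1.57 and -0.53 in DiNP 100 libraries and -2.59, -2.92 and -2.12 in vehicle libraries, and the T cell receptor component Cd3g at -0.60, -0.94 and -0.70 in DiNP 100 libraries and -2.15, -1.21 and -1.19 in vehicle libraries. Cd3e, of the same receptor, overlapped, between -2.15 and -0.70 in DiNP 100 libraries and between -2.11 and -0.38 in vehicle libraries. S100a9, a neutrophil marker, was at the table's lowest value of -3.34 in DiNP 100 replicate 3. The 10 higher genes with the smallest p included Aoah, Ikzf1 and Nfam1. Aoah (Entrez 27052), which detoxifies bacterial lipopolysaccharide, stood at 0.06, 0.48 and 0.72 in DiNP 100 libraries and -1.18, -0.62 and -0.95 in vehicle libraries (1.34 ± 0.38). Ikzf1, a lymphoid transcription factor, differed by 0.92 ± 0.28 and Nfam1, an immune receptor activator of NFAT, by 0.77 ± 0.24. In all 3 the groups were apart, and the adjusted limma p was 1. They are not members of the leukocyte list, and their separation follows in part from naming them for a small p. Complement genes other than C1q were mixed, with 10 of 16 higher and a median of 0.04. The complement receptor C5ar1 differed by 0.75 ± 0.30, and the central component C3 by -0.60 ± 0.53, which was -0.19 without vehicle replicate 3 and -1.09 without vehicle replicate 1.

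Markers of the ovarian surface epithelium and mesothelium, the cell layer that covers the ovary, were lower in 13 of 15 cases in DiNP 100 ovaries, with a median of -0.36, and 3 lay wholly lower, as did 4.26% of all tested genes. The list mean was 3.79, 3.56 and 3.68 log2 CPM in DiNP 100 libraries and 3.94, 4.04 and 4.18 in vehicle libraries. Gpm6a stood between 3.47 and 3.58 in DiNP 100 libraries and at 3.83, 4.34 and 4.58 in vehicle libraries (-0.73 ± 0.24), and Lrrn4 differed by -1.10 ± 0.42. The keratin Krt7 stood at 2.21, 2.32 and 2.44 in DiNP 100 libraries and 2.94, 2.76 and 3.07 in vehicle libraries (-0.60 ± 0.33). Mesothelin (Msln) differed by -0.68 ± 0.51. Wt1 (0.04 ± 0.22) and Lhx9 (0.19 ± 0.31) were the 2 exceptions. Both are also expressed inside the ovary, and whether this bears on their direction was not tested. None was called, and the median stayed between -0.49 and -0.31 with 1 library left out. Fbln2, a matrix protein, was among the 10 genes with the smallest p in the lower direction, at 4.71, 4.77 and 4.33 in DiNP 100 libraries and 5.80, 5.92 and 5.38 in vehicle libraries (-1.10 ± 0.34), with an adjusted p = 1 in limma. Pgf, a placental growth factor of the vascular endothelial family, stood at 0.28, 0.40 and 0.16 in DiNP 100 libraries and 0.94, 1.05 and 0.79 in vehicle libraries (-0.64 ± 0.20), likewise without overlap.

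Granulosa cell genes were lower in 13 of 20 cases, with a median of -0.35. Unadjusted limma p-values were under 0.05 for 5 of them (Inhbb, Nppc, Hsd17b1, Nap1l5 and Ccnd2), all lower, where 0.95% of tested genes were lower at that level. None was called. Hsd17b1, which converts estrone to estradiol, stood at 7.45, 6.98 and 6.99 log2 CPM in DiNP 100 libraries and 8.16, 8.12 and 7.37 in vehicle libraries (-0.75 ± 0.32). Inhbb, the activin B subunit, stood at 9.56, 8.58 and 9.58 in DiNP 100 libraries and 10.42, 10.45 and 9.43 in vehicle libraries (-0.86 ± 0.37), and Inhba, the activin A subunit, differed by -0.70 ± 0.42. Nppc, whose peptide holds the oocyte in meiotic arrest, stood at 3.57, 3.15 and 3.09 in DiNP 100 libraries and 4.17, 4.67 and 3.49 in vehicle libraries (-0.84 ± 0.37). In these 4 genes vehicle replicate 3 was the lowest vehicle library and lay within the range of the DiNP 100 libraries. Cyp19a1, the aromatase, spread too widely to place (-0.40 ± 0.85), and Fshr differed by -0.39 ± 0.34. Amh, a hormone of small growing follicles, its receptor Amhr2 and the granulosa cell transcription factor Foxl2 were level, with Amh at 0.03 ± 0.38, Foxl2 at 0.02 ± 0.23 and Amhr2 at 0.02 ± 0.27. The list median was -0.17 without DiNP 100 replicate 3, with 12 of 20 lower, and -0.55 without vehicle replicate 3.

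**Figure D4:**
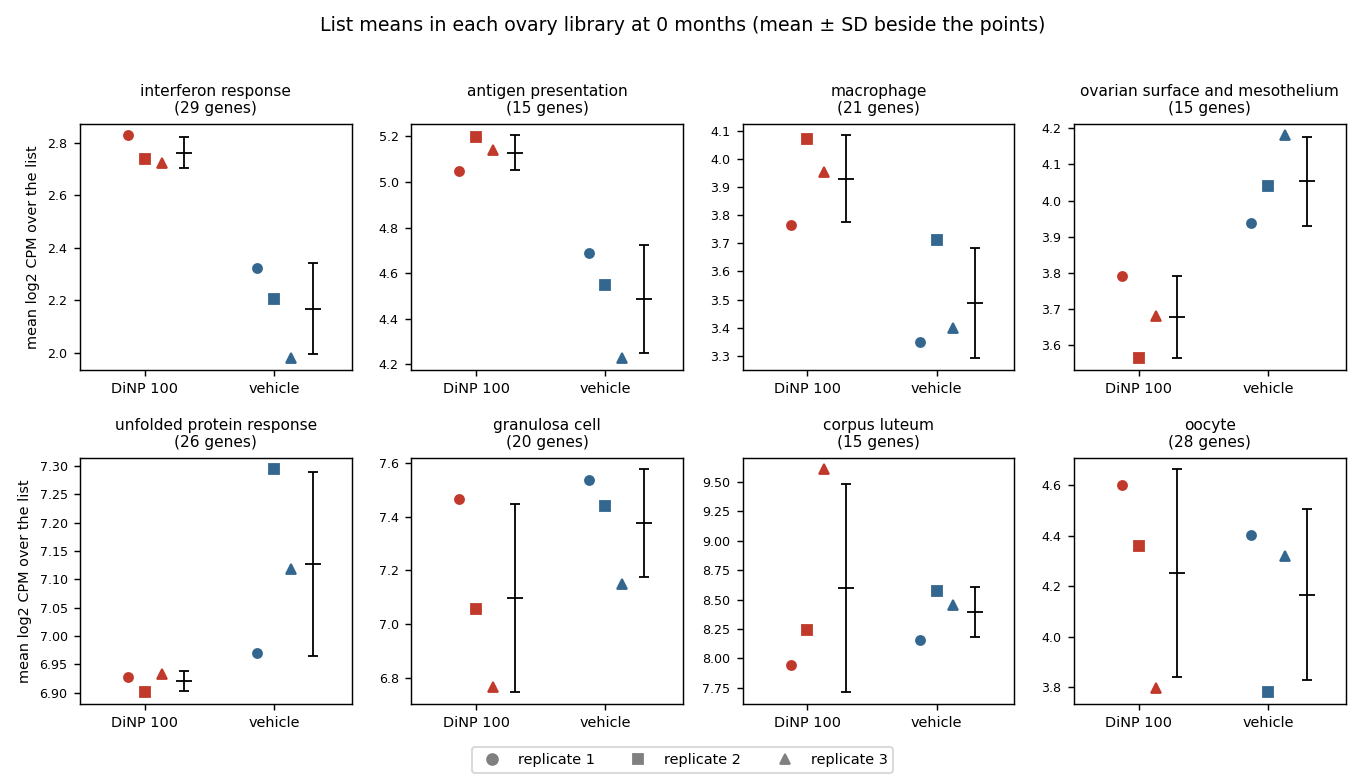
Mean log2 CPM over the tested members of 8 lists in each library (points, shape by replicate number), with the group mean and SD beside them, and axes that do not start at 0. Interferon response, antigen presentation, macrophage, ovarian surface and unfolded protein response means do not overlap between the groups. Among lists not drawn, neither do those of the Notch list (median difference -0.07, lower) and of the T, B and NK cell and neutrophil list. With 3 libraries against 3, an exact permutation test of 1 such mean cannot go below p = 0.1, so separation of 1 list is weak evidence. In the corpus luteum panel DiNP 100 replicate 3 lies above all others at 9.61.

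Unfolded protein response genes, which encode the chaperones and signal transducers of the endoplasmic reticulum, were lower in 22 of 26 cases, with a median of -0.17, and 7 lay wholly lower, as did 4.26% of all tested genes. The list mean was 6.93, 6.90 and 6.93 log2 CPM in DiNP 100 libraries and 6.97, 7.29 and 7.12 in vehicle libraries. The chaperone Hspa5, also known as BiP, stood at 10.64, 10.66 and 10.40 in DiNP 100 libraries and 10.81, 10.89 and 10.84 in vehicle libraries (-0.28 ± 0.26). Its partner Sdf2l1 stood at 5.34, 5.29 and 5.29 in DiNP 100 libraries and 5.67, 6.09 and 5.83 in vehicle libraries (-0.55 ± 0.32). Ddit3, the stress factor CHOP, differed by -0.92 ± 0.52 and Pdia4, a disulfide isomerase, by -0.65 ± 0.36, and in both 1 vehicle library was far above the others (5.78 in vehicle replicate 3 for Ddit3 and 9.84 in vehicle replicate 2 for Pdia4). The sensors Ern1 (-0.05 ± 0.22), Eif2ak3 (-0.03 ± 0.11) and Atf6 (-0.15 ± 0.17) differed little. None of the 26 was called or had an unadjusted limma p under 0.05. The median was -0.08 without vehicle replicate 2.

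Progesterone synthesis genes varied more between DiNP 100 libraries than between the groups. Star, which carries cholesterol into mitochondria, stood at 9.42, 10.95 and 12.88 log2 CPM in DiNP 100 libraries and 9.60, 10.79 and 9.74 in vehicle libraries, a difference of 1.04 ± 1.36 that was 0.14 without DiNP 100 replicate 3. Akr1c18, the luteal enzyme that inactivates progesterone, stood at 7.87, 10.45 and 12.19 in DiNP 100 libraries and 8.16, 10.21 and 6.41 in vehicle libraries (1.91 ± 2.47), and the difference was 0.90 without replicate 3. The theca androgen enzyme Cyp17a1 went the other way in the same library, at 9.70, 8.79 and 4.22 in DiNP 100 libraries and 9.95, 8.19 and 8.67 in vehicle libraries. Its difference of -1.36 ± 1.01 was 0.31 without replicate 3. The abundant Cyp11a1 (0.12 ± 0.75) and Hsd3b1 (-0.01 ± 0.34) were level on average, with Cyp11a1 at 13.63 in replicate 3.

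Corpus luteum genes as a list had 10 of 15 members higher and a median of 0.12, which became -0.15 with 10 of 15 lower without DiNP 100 replicate 3. Cholesterol synthesis, uptake and storage genes were higher in 22 of 27 cases with all libraries (median 0.14) and lower in 26 of 27 without replicate 3 (median -0.37), and the list mean was 6.97, 6.69 and 8.29 in DiNP 100 libraries against 6.91, 7.21 and 7.55 in vehicle libraries. Neither list therefore has a direction that holds across the DiNP 100 ovaries. The theca and hedgehog list behaved likewise, with a median of -0.06 that was 0.13 without that library.

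**Figure D5:**
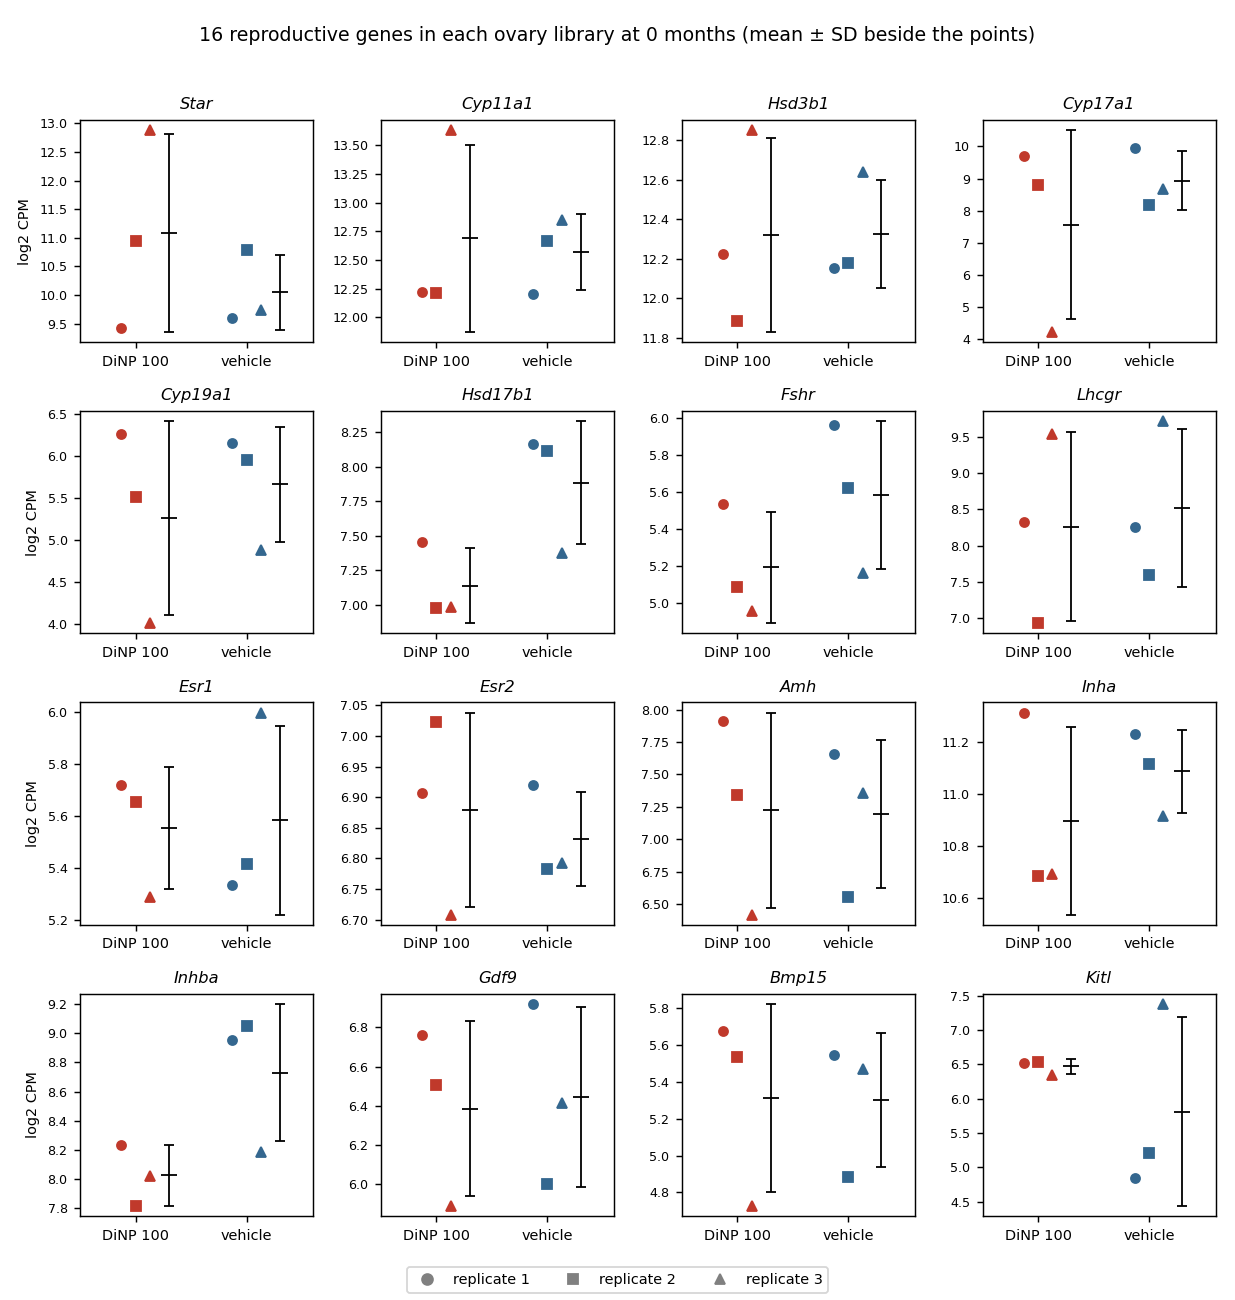
Log2 CPM of 16 reproductive genes in each library at 0 months (points, shape by replicate number), with the group mean and SD beside them, and axes that do not start at 0. DiNP 100 replicate 3 is the highest of the 6 libraries for Star, Cyp11a1 and Hsd3b1 and the lowest for Cyp17a1, Cyp19a1, Fshr, Esr1, Esr2, Amh, Gdf9 and Bmp15.

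The steroid and luteinizing hormone receptors and the oocyte factors of the same panel differed by less than 1 SE. Esr1, the main estrogen receptor of the theca, differed by -0.03 ± 0.23, Esr2, that of granulosa cells, by 0.05 ± 0.42, and Lhcgr, the luteinizing hormone receptor, by -0.26 ± 0.72. Gdf9 and Bmp15, growth factors secreted by the oocyte, differed by -0.06 ± 0.36 and 0.01 ± 0.39. Kitl, the granulosa ligand of the oocyte receptor Kit, stood at 6.53, 6.54 and 6.35 in DiNP 100 libraries and at 4.85, 5.21 and 7.39 in vehicle libraries, and its difference of 0.66 ± 0.75 was 1.45 without vehicle replicate 3. Oocyte genes as a list were lower in 18 of 28 cases, with a median of -0.05. The median was 0.18 with 23 of 28 higher without DiNP 100 replicate 3, and -0.25 with 26 of 28 lower without vehicle replicate 2, so its sign depends on 1 library.

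Obox2 (Entrez 246792, chr7:15388851-15398545), an oocyte homeobox gene, had the smallest p of all genes. It stood at 4.20, 3.68 and 2.59 log2 CPM in DiNP 100 libraries and at -2.19, -1.72 and 2.78 in vehicle libraries, a difference of 3.87 ± 0.82 (95% interval 2.16 to 5.57, adjusted p = 1 in limma). Vehicle replicate 3 lay among the DiNP 100 libraries, and 28 of all 30 libraries were above 1 CPM, so the difference lies in vehicle replicates 1 and 2. Without vehicle replicate 3 the difference was 5.45 and Obox2 became the only called gene (adjusted p = 3.5e-05 in limma). Its relatives Obox1 and Obox5 were level. Obox1 stood at 3.55, 3.48 and 2.71 in DiNP 100 libraries and 3.58, 2.90 and 3.26 in vehicle libraries, and Obox5 differed by 0.10 ± 0.36. The Obox genes are close copies that can share reads, so the value of a single copy is uncertain.

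Hmga1b (Entrez 111241, chr11:120762794-120764392), a chromatin protein gene that is a near copy of Hmga1, had the largest difference among genes whose groups did not overlap. It stood at 3.63, 3.19 and 3.68 log2 CPM in DiNP 100 libraries and at -2.07, -3.34 and -3.34 in vehicle libraries, 2 of which are the lowest value of the table. The difference was 6.42 ± 2.45 (adjusted p = 1 in limma), and it was the only gene called when the 6 libraries were fitted alone (adjusted p = 0.0201 in limma). With the replicate number as a block in those 6 libraries, 0 genes were called. Hmga1 itself lay in the other direction, at 4.52, 3.98 and 3.43 in DiNP 100 libraries and 5.43, 5.05 and 4.79 in vehicle libraries (-1.11 ± 0.47). Whether reads moved between the copies was not tested. The DiNP 20 libraries also held Hmga1b (3.05, 2.84 and 4.25), whereas at 3 months it was on or off by library in both DiNP 100 and vehicle ovaries.

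Other genes with large differences follow. Gvin1, a large interferon-inducible GTPase gene, stood at 0.52, 0.91 and 2.16 log2 CPM in DiNP 100 libraries and -0.95, -3.34 and -3.34 in vehicle libraries (3.74 ± 1.89). The value -3.34 is the lowest of the table, and Gvin1 was on or off by library in other groups. DiNP 20 libraries stood at -3.34, 0.19 and 2.15. At 3 months every DiNP 100 library stood at -3.34, and vehicle libraries at -3.34, 1.71 and 3.26. Mug1 (Entrez 17836), a protease inhibitor of the alpha-2-macroglobulin family, had the second smallest p among higher genes, at 3.44, 3.33 and 2.43 in DiNP 100 libraries and 1.96, 0.46 and 1.37 in vehicle libraries (1.80 ± 0.47). Its close copy Mug2 overlapped between the groups (0.81 ± 0.97). Among lower genes, Edn2, the endothelin that granulosa cells make around ovulation, stood at 2.35, -0.60 and -1.30 in DiNP 100 libraries and 4.08, 2.48 and 5.45 in vehicle libraries (-3.85 ± 1.89). H60b, a ligand of the NKG2D receptor of NK cells, differed by -2.31 ± 0.80, Dner, a Notch ligand, by -2.41 ± 1.23, and the carboxylesterase Ces2a by -2.29 ± 1.80. None of these genes was called. Without DiNP 100 replicate 3 the difference was -3.13 for Edn2, -1.38 for H60b, -1.88 for Dner and -1.84 for Ces2a. Among single members of the remaining lists, Fzd1, a WNT receptor, differed by 0.79 ± 0.30, Runx1, a transcription factor induced at ovulation, by 0.54 ± 0.23, and the clock gene Per1 by -0.46 ± 0.19, each with groups that did not overlap.

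The remaining genes among the 10 with the smallest p in each direction had modest and even differences. Smim24, a small membrane protein gene, stood at 0.56, 0.08 and 0.20 log2 CPM in DiNP 100 libraries and at 1.26, 0.80 and 1.08 in vehicle libraries (-0.76 ± 0.20). Flrt3, a cell adhesion protein gene, stood at 3.34, 3.19 and 3.43 in DiNP 100 libraries and at 2.54, 1.94 and 2.92 in vehicle libraries (0.86 ± 0.28). The groups were apart in both, which were likewise named for a small p. Gtpbp10, a GTPase of the mitochondrial ribosome, differed by 0.35 ± 0.11. The others were predicted genes, pseudogenes or genes known only by clone names.

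The lists that bear on known phthalate targets were centred near the median of all genes. Peroxisome proliferator-activated receptors, which phthalate monoesters can bind, and the fatty acid oxidation genes they control were higher in 13 and lower in 12 of 25 cases, with a median of 0.01. Ppara differed by -0.21 ± 0.30, Pparg by -0.12 ± 0.19, Ppard by 0.02 ± 0.10 and the target gene Cpt1a by 0.30 ± 0.33, which was 0.029 without DiNP 100 replicate 3. Dioxin receptor and xenobiotic genes had 8 of 15 higher (median 0.02), antioxidant and glutathione genes 16 of 30 (median 0.01), and apoptosis genes 9 of 21 (median -0.04). Steroid hormone synthesis genes were higher in 8 of 16 (median 0.03). Writers and erasers of DNA methylation were lower in 10 of 14, with a median of -0.05, and Tet3, a methylcytosine oxidase, stood at 6.98, 7.03 and 6.79 log2 CPM in DiNP 100 libraries and at 7.10, 7.27 and 7.10 in vehicle libraries (-0.23 ± 0.20). Proliferation genes were lower in 26 of 30 but by a median of only -0.08, and without vehicle replicate 1 the median was 0.01 with 18 of 30 higher. Immediate early genes were lower in 15 of 20 (median -0.12), and without DiNP 100 replicate 3 they were higher in 12 of 20 (median 0.05). No member of the lists in this paragraph was called, and 1 of them, Ccnd2 among the proliferation genes, and 1 more, Hsd17b1 among the steroid genes, had an unadjusted limma p under 0.05.

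Lists of the other cell types and of basic cell functions were close to the median of all genes or varied with single libraries. Endothelial genes were lower in 14 of 18 cases (median -0.10), with no member apart. Smooth muscle genes were higher in 10 of 12 (median 0.06), and in 4 of 12 without vehicle replicate 3 or without DiNP 100 replicate 1. Oxidative phosphorylation genes, 21 of 26 higher, and ribosomal protein genes, 23 of 30 higher, each had a median of 0.04. Without DiNP 100 replicate 3 the first list had 9 of 26 higher and without vehicle replicate 2 it had 12 of 26, and the ribosomal list had 10 of 30 higher without DiNP 100 replicate 1 and 9 of 30 without vehicle replicate 2. Extracellular matrix genes were higher in 16 of 28 (median 0.01), and in 10 of 28 without DiNP 100 replicate 2. Markers of tissue that can adhere to a dissected ovary were lower on average but not steadily so. The adipocyte list, 7 of 8 lower, had a median of -0.29 that ran from -1.07 to 0.41 with 1 library left out, and the oviduct list, 6 of 7 lower, had a median of -0.33 that ran from -0.72 to 0.0006.

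The dose was tested by setting DiNP 100 directly against DiNP 20 ovaries at 0 months. No gene was called (0%), and 86 genes (0.583%) had an unadjusted limma p under 0.05, against the 737 that chance would give. Of these 46 (0.312%) were higher and 40 (0.271%) lower at the higher dose. The median 95% interval reached 0.409 to either side of a dose difference, so the absence of calls does not show that the doses act alike. Thg1l, a transfer RNA guanylyltransferase, had the smallest p, at 4.55, 4.41 and 4.49 log2 CPM in DiNP 100 libraries and 3.65, 3.75 and 3.91 in DiNP 20 libraries (0.71 ± 0.21, adjusted p = 1 in limma). Faim2, an inhibitor of Fas signalling, stood at -0.50, -0.85 and -0.20 in DiNP 100 libraries and 0.83, 1.03 and 0.61 in DiNP 20 libraries (-1.34 ± 0.44). Stra6, the receptor for the retinol carrier, stood at 4.63, 4.29 and 4.45 in DiNP 100 libraries and 5.31, 5.59 and 4.90 in DiNP 20 libraries (-0.81 ± 0.27). These 3 were apart between the doses, which follows in part from naming them for a small p in this same comparison. The interferon list mean was 2.83, 2.74 and 2.72 in DiNP 100 libraries and 2.31, 2.64 and 2.67 in DiNP 20 libraries. Of the 29 interferon genes, 26 were higher at the higher dose (median 0.24), as were 20 of 21 macrophage markers (median 0.25) and 12 of 15 antigen presentation genes (median 0.36). Other lists were also one-sided, with 15 of 16 heat shock genes (median 0.24) and 11 of 12 smooth muscle genes (0.28) higher. Ribosomal protein genes were higher in 27 of 30 cases (0.13) and cholesterol genes lower in 21 of 27 (-0.13). The median of all tested genes was 0.01. The granulosa list was level between the doses (median -0.01), and 12 of 15 ovarian surface genes were lower at the higher dose (median -0.18). Relative to the same 3 vehicle libraries, which both comparisons share, the medians with DiNP 20 were 0.31 for interferon, 0.14 for antigen presentation, 0.11 for macrophage, -0.12 for ovarian surface, -0.45 for granulosa and -0.27 for unfolded protein response genes.

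Whether the DiNP 100 effect differed between the times was tested as the effect at 0 months minus the effect at 3 months. Each effect was taken against the vehicle ovaries of its own time. No gene was called (0%), and the smallest adjusted p was 0.997 in limma. An unadjusted limma p under 0.05 was found for 343 genes (2.33%), against the 737 that chance would give. Of the 343, 199 (1.35%) had the higher and 144 (0.977%) the lower effect at 0 months. The median confidence interval reached 0.579 to either side of this difference of effects. The absence of calls therefore shows neither that the DiNP 100 effect lasted nor that it was lost. Tspyl2, a chromatin protein gene, had the smallest p. At 0 months it stood at 5.37, 5.58 and 5.56 log2 CPM in DiNP 100 libraries and 5.79, 5.84 and 5.90 in vehicle libraries. At 3 months it stood at 5.63, 5.72 and 5.76 in DiNP 100 libraries and 5.56, 5.49 and 5.62 in vehicle libraries. The effects were -0.34 at 0 months and 0.14 at 3 months, and they differed by -0.48 ± 0.13. Adh7, a retinol-oxidizing alcohol dehydrogenase, had effects of 1.57 at 0 months and -2.83 at 3 months, which differed by 4.40 ± 1.31. Obox2 had an effect of -0.08 at 3 months, when all 6 libraries were between 2.30 and 4.01.

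At 3 months the interferon median was 0.34 and that of antigen presentation genes 0.54, beside 0.48 and 0.57 at 0 months. The DiNP 100 libraries were uneven at 3 months. The interferon list mean was 3.91, 2.71 and 3.20 in DiNP 100 libraries and 2.84, 2.87 and 3.02 in vehicle libraries, and that of antigen presentation 7.07, 5.28 and 6.20 in DiNP 100 libraries and 5.42, 5.41 and 5.82 in vehicle libraries. For both lists DiNP 100 replicate 1 was the highest and replicate 2 the lowest of the 6. The macrophage median was 0.26 at 3 months, the granulosa median -0.31 and the ovarian surface median -0.03. For the unfolded protein response the median was 0.15 at 3 months, against -0.17 at 0 months, and 22 of 26 genes had a lower effect at 0 months (median of the difference -0.33), of which 1 had an unadjusted limma p under 0.05 and none was called. The effect was also lower at 0 months for 26 of 26 oxidative phosphorylation genes (median -0.23) and 27 of 30 ribosomal protein genes (-0.22). It was lower for 23 of 27 cholesterol genes (-0.27) and 12 of 15 ovarian surface genes (-0.46). Macrophage markers had the higher effect at 0 months in 18 of 21 cases (0.20), and the median of all tested genes was -0.01.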

How the data were processed

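Per the labels' protocols, ovaries were flash frozen, RNA was extracted on RNeasy columns, and TruSeq stranded mRNA libraries were sequenced from 1 end on an Illumina instrument. The submitters' processing notes name FastQC 0.11.8, Salmon 0.11.3, edgeR, R 3.5.2 and GRCm38.p6, without their order. The authors deposited 1 table of log2 CPM (18022 genes, 30 columns), used as it stands; 17770 Entrez identifiers (98.6%) were matched to RefSeq. Whole reads could not be recovered, so no count test was run and depth is approximate.

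Genes with mean log2 CPM above 0 (14740) were fitted with limma 3.58.1 (R 4.3.3, statmod 1.5.0), with 10 group means over 30 libraries, a trended prior variance, 20 residual degrees of freedom, and Benjamini-Hochberg adjustment over all genes; the fit was tested on simulated data. Lists were described by counts and medians, without a test; 1 interferon response gene is counted in its list but not reported here. With 3 libraries against 3, an exact permutation test of 1 value cannot go below p = 0.1, so none was run.

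The groups, lists and tests were chosen with earlier results of these data known. Named genes are those with the 10 smallest p in each direction, a panel of 16 reproductive genes, members of each list with the smallest p, the largest differences without overlap, the most abundant genes and the leading genes for dose and time. Members named as further examples beside their list were chosen after their values were seen. Deviations of same-numbered DiNP 100 and vehicle libraries from their group means correlated at 0.258, 0.114 and 0.148. Those of differently numbered libraries correlated at -0.301 to 0.121, which overlaps these values. The numbers were treated as pairs in an alternative fit, although the labels do not state a pairing. Other alternatives were 2 other scalings, other filters, an added pseudocount of 1 CPM, other variance models, library weights, fewer libraries and leaving out each library.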

Additional observations from a re-analysis of the deposited data

How the results depend on the processing

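No gene was called between DiNP 100 and vehicle ovaries under any alternative except 2: 1 gene, Hmga1b, with the 6 libraries fitted alone, and 1 gene, Obox2, without vehicle replicate 3 (0 to 1 with 1 library left out). For the time contrast the count was also 0 to 1, with 1 gene, Obox2, called without vehicle replicate 3, and for dose it was 0 throughout. The 258 genes with an unadjusted limma p under 0.05 became 170 at mean log2 CPM above 2 and 557 with the 6 libraries alone. With 1 library left out they were 192 to 337, and with library weights 888. Of the 6 libraries, DiNP 100 replicate 3 had the lowest weight (0.684). Over all 30 libraries the weights ran from 0.005 (DiNP 100, 3 months replicate 1) to 35.131 (vehicle, 3 months replicate 2). With the replicate number as a block the count of such genes was 240. It was 766 in the 6 libraries with the block, a setting chosen after seeing the data. The pairing removed the call of Hmga1b in the 6 libraries, where 0 genes were called with the block, and changed no call in the fit to all 30. The 86 genes of the dose contrast became 189 without a filter, 51 at mean log2 CPM above 2, 884 with library weights and 69 to 194 with 1 library left out, and the 343 of the time contrast ran from 164 (without DiNP 100, 3 months replicate 3) to 1711 (without DiNP 100, 3 months replicate 2). The cause was not tested. Of 677 list medians under alternatives, 670 moved by less than the SD of the list mean between libraries, in the group with the larger SD. Such moves include changes of sign, since this SD is wide where 1 library stands apart. The cholesterol median went from 0.14 to -0.37 without DiNP 100 replicate 3, beside an SD of 0.86 in the DiNP 100 libraries.

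Of 100 genes named, 27 changed sign when 1 library was left out. The log2 difference ran from -0.35 to 0.35 for Cyp11a1, -0.27 to 0.21 for Hsd3b1, -2.43 to 0.31 for Cyp17a1, -0.90 to 0.23 for Cyp19a1, -0.90 to 0.41 for Lhcgr, -0.15 to 0.18 for Esr1, -0.024 to 0.13 for Esr2, -0.31 to 0.43 for Amh, -0.27 to 0.33 for Amhr2, -0.089 to 0.23 for Foxl2, -0.28 to 0.19 for Gdf9, -0.20 to 0.30 for Bmp15, -0.17 to 0.27 for Obox1, -0.16 to 0.37 for Obox5 and -0.10 to 1.96 for Mug2. It ran from -0.038 to 0.15 for Stat2, -0.0099 to 0.26 for Dhx58, -0.20 to 0.58 for Ifi27l2a, -0.043 to 0.39 for Lyz2, -0.24 to 0.057 for Cd14, -0.13 to 0.23 for Wt1, -0.13 to 0.031 for Ern1, -0.14 to 0.077 for Eif2ak3, -0.38 to 0.036 for Ppara, -0.21 to 0.0026 for Pparg, -0.030 to 0.067 for Ppard and -0.082 to 0.11 for Stra6. Obox2 ran from 2.96 to 5.45. With library weights the difference was -0.081 for Ifi27l2a, 0.011 for Cd14, -0.013 for Foxl2, -0.15 for Cyp11a1, 0.013 for Esr1, 0.046 for Gdf9 and -0.0011 for Stra6. With quantile normalization it was 0.095 for Hsd3b1 and -0.0037 for Bmp15, and with median centring -0.0047 for Obox1.

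With 3 libraries a group and approximate depths near 30 M reads, the median 95% interval reached 0.409 log2 to either side. It is not adjusted for the number of genes, so for a typical gene a call needed a larger difference than this. Obox2, at 3.87 ± 0.82, was not called.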
